A study of Mus musculus with 2 samples.

Results

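The regions described here are isolated, weak and narrow sites of RNA polymerase II (Pol II) signal in mouse embryonic fibroblasts. They were chosen by read counts in 2 chromatin immunoprecipitation sequencing (ChIP-seq) libraries. Of 41704 regions called in both libraries on chromosomes 1 to 19 of the mouse genome build mm8, 1197 were members. A region was made of 500 bp windows holding at least 12 distinct reads in library 1 and at least 7 in library 2, joined across at most 1 window. Members were at most 1 kb wide, lay at least 50 kb from any other region called in both libraries, and held a mean of less than 2 reads per 1000000 distinct nuclear reads (RPM) in their highest window. The level, the width and the distance are therefore the rule itself and are given as descriptions, with no test.

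Mouse embryonic fibroblasts are connective tissue cells cultured from embryos, and these were grown in DMEM with 10% serum. Both libraries used the antibody 8WG16, which binds the repeated tail of the largest Pol II subunit. The labels give no strain, genotype or embryonic age and name no separate cultures, so the spread between the libraries may be technical. Library 1 was cut from a gel slice of 150 to 350 bp and library 2 from one of 150 to 300 bp, in different sequencing runs. These differences cannot be told apart from one another. No input or control precipitation was analysed here, so there is no measure of what the same sites hold without the antibody.

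Pol II transcribes protein-coding genes and many noncoding RNAs, and it gathers at promoters, where it often pauses, and at enhancers, where it makes short unstable transcripts. An enhancer can lie far from any gene, and so a lone Pol II site is one of the forms that distal regulatory DNA takes. A lone cluster of reads can also arise where the reference holds fewer copies of a sequence than the genome does, where short stretches are unique inside repeats, or where PCR copies 1 fragment many times. In ChIP-seq each read is 1 end of a fragment, so around a bound site the plus-strand ends lie to the left and the minus-strand ends to the right, by about a fragment length. The strand lag, the repeated starts and the placement of reads at more than 1 site were therefore measured at each member. No annotation of mm8 was used here, so no site is assigned to a gene, promoter, exon or intron.

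Library 1 held 17548967 distinct nuclear reads and library 2 held 10941174, after removal of repeats of a start and strand, 10.1% and 4.54% of what was placed at 1 site. An uncalled window, below the count limit of its library and with a read in either library, held on average 3.47 distinct reads in library 1 and 1.32 in library 2. The counts at each member were low, and this sets the precision of everything measured at a single site.

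The isolated weak sites stood several-fold over their surroundings on very few reads. The highest window held a median of 15 distinct reads in library 1, from 12 to 49, and a median of 12 in library 2, from 7 to 34. In RPM the medians were 0.855 in library 1 and 1.1 in library 2, and the mean over both libraries had a median of 0.998 with a range of 0.662 to 1.99. The smallest counts that the rule accepts equal 0.684 and 0.640 RPM, and 602 sites had a mean below 1 RPM. Library 2 was the higher in RPM at 758 of the 1197 sites, with a median ratio of library 2 to library 1 of 1.18 and a range of 0.314 to 4.28.

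The mean of the surroundings was near that of uncalled windows in library 1 and above it in library 2, but the means are not alike. The surroundings include windows that passed the count limit and windows empty in both libraries. The mean of uncalled windows leaves these out. Windows 5 to 50 kb away held a mean of 3.46 distinct reads in library 1 and 1.80 in library 2, and windows 1 to 5 kb away held 3.97 and 2.35. The highest window was a median of 4.52 times the mean of the windows 5 to 50 kb away in library 1 and 8.00 times in library 2. Regions of 2 kinds served for comparison. Crowded weak sites, of which there were 23428, had the same limits of width and level but a neighbour nearer than 50 kb, and isolated strong sites, of which there were 400, had the same limits of width and distance but 2 RPM or more. At crowded weak sites the windows 5 to 50 kb away held means of 7.19 and 6.98 distinct reads, and the medians of the fold over them were only 2.05 and 1.80. At isolated strong sites those means were 3.25 and 1.71 reads and the fold had medians of 13.8 and 22.2. The isolated weak sites thus shared their surroundings with the isolated strong sites and their level with the crowded ones, which follows from the rule.

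Most of the sites were a single window wide. A width of 500 bp was found at 986 sites and of 1000 bp at 211. The distance to the nearest region had a median of 95500 bp, it was 100 kb or more at 567 sites and 500 kb or more at 60. Isolation held for regions called in both libraries, not for signal in either. Between 1 and 50 kb from the site, 566 sites had at least 1 window that passed the count limit of library 1 alone, and 955 had one that passed the limit of library 2 alone. Only 202 sites, or 16.9%, had no such window in either library. Of the rest, 526 had them in both, 429 in library 2 alone and 40 in library 1 alone.

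The limits of the rule fell where many regions lie close together. The pair of members just under 2 RPM were at 1.99 RPM, and the isolated regions just over it, on chromosome 18 from 23558001 to 23558500 and on chromosome 19 from 45417001 to 45417500, were at 2.003 and 2.008 RPM. The former held 27 distinct reads in both libraries, the latter 40 and 19. Of the members, 13 lay exactly 50000 bp from their nearest region, among them those on chromosome 1 from 138282501 to 138283000 and from 154717001 to 154717500. Another 5 narrow weak regions missed the limit at 49500 bp, among them those on chromosome 1 from 129117501 to 129118000 and on chromosome 3 from 54578501 to 54579000.

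Each of the 19 autosomes held some of the sites. Chromosomes 1 and 2 each held 96 and chromosome 19 held 24. Per Mb of sequence that held reads, the mean over the 19 chromosomes was 0.580 ± 0.0853 sites (SD), from 0.453 on chromosome 15 to 0.792 on chromosome 10. As a share of all regions called in both libraries, the sites ranged from 1.65% on chromosome 11 to 4.42% on chromosome 10. Chromosomes with more regions per Mb did not hold more isolated weak sites per Mb, with a Pearson r of -0.38 across the 19 chromosomes, given as a description since the rule makes crowding and isolation exclude each other.

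Averaged over all members, the reads formed a narrow peak with the plus strand to the left of the minus strand. Each profile was centred by the median read position of the other library, but both libraries had chosen the window, so the peak's height is a description of what the rule picked. At the centre, library 1 held 5.82 times the level found 1500 to 2000 bp away and library 2 held 6.68 times. The peak was 300 bp wide at 50% of its height in library 1 and 350 bp in library 2, in bins of 50 bp. The plus-strand ends were densest in the bin 75 bp to the left of the centre and the minus-strand ends in the bin 25 bp to the right, in both libraries. A low shoulder lay outside the peak, at 1.39 and 1.55 times the outer level between 500 and 1000 bp from the centre.

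**Figure D1:**
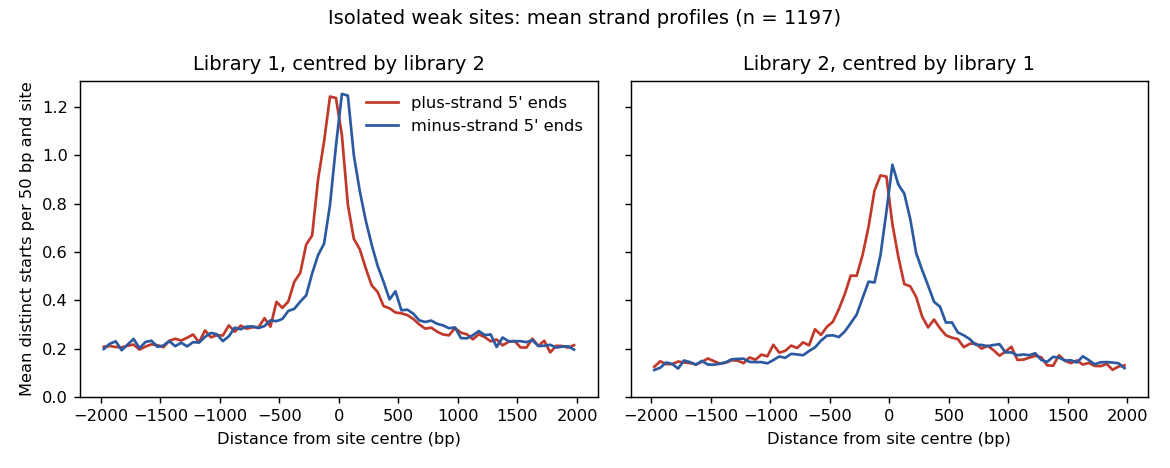
Mean number of distinct plus-strand and minus-strand 5′ ends per 50 bp and site (y axis) by distance from the site centre in bp (x axis) over the 1197 isolated weak sites, for library 1 on the left and library 2 on the right, each centred by the other library. The plus strand peaks at -75 bp and the minus strand at 25 bp in both libraries.

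As chosen with both libraries, the peaks of isolated weak sites were more compact than those of crowded weak sites and less compact than those of isolated strong sites. Of the reads within 500 bp of the centre, 34.9% lay within 100 bp of it in library 1 and 33.7% in library 2 (34.3% ± 0.886, SD, n = 2). The rule picks windows full of reads in both libraries, so a central peak follows from it, and with a library held out of the choice the shares were 26.89% in library 1 and 31.85% in library 2. At crowded weak sites the shares were 27.8% and 24.9%, and at isolated strong sites 46.1% and 43.2%, with both libraries in the choice. The rule sets these 3 kinds of region apart by level and distance, so their order is a description. No share with a library held out was made for the other kinds. The 26.89% of library 1 held out lay below the 27.8% of crowded weak sites. The crowded peak was 400 bp wide at 50% of its height in both libraries, over an outer level that was itself higher. With 2 libraries no test of these differences was made.

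Site by site, the strand lag was mostly positive, but single sites measured it poorly. The lag is the mean position of the minus-strand ends less that of the plus-strand ends, over the distinct unshifted 5′ ends from 250 bp before to 250 bp after the region. Its median over sites was 62.4 bp in library 1 and 79.2 bp in library 2, or 70.8 ± 11.9 bp (SD, n = 2). It was above 0 at 876 sites (73.2%) in library 1 and at 895 sites (74.8%) in library 2, against 68.8% and 65.9% of all regions called in both libraries. The middle 50% of sites ran from -5.26 to 128 bp in library 1 and from -1.11 to 149 bp in library 2.

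The libraries shared little of the order of sites by lag. The lag was above 0 in both libraries at 670 sites (56.0%), below 0 in both at 96 (8.02%) and of opposite sign at 431. Across the 1197 sites Pearson's r between the libraries was 0.11, given as a description of values that each rest on few reads. Among sites with a lag above 0 in library 1, 76.5% had one above 0 in library 2, and among the other sites 70.1% had. A positive lag in 1 library was thus only a little more frequent where the other library had one too.

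**Figure D2:**
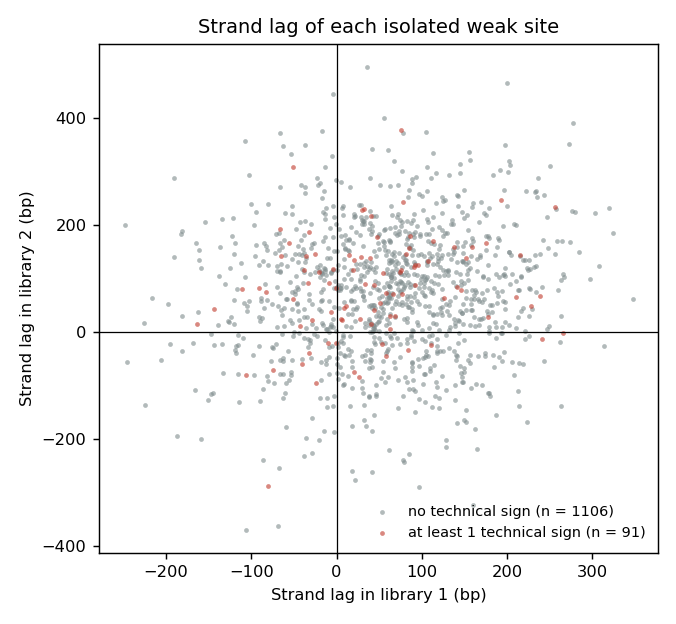
Strand lag in bp of each of the 1197 isolated weak sites in library 1 (x axis) and library 2 (y axis), 1 point per site, with lines at 0. Points in the upper right quadrant, 670 sites, have a positive lag in both libraries, and the 91 sites with at least 1 technical sign (red, defined in the text) lie among the others.

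The size of the lag moved with the way the sites were chosen. The rule counts reads shifted 60 bp toward the middle of their fragment, so a window chosen for its count draws plus-strand ends from its left and minus-strand ends from its right. Chosen with no shift, 1211 sites had median lags of 46.45 bp in library 1 and 73.42 bp in library 2, with 66.8% and 72.09% of sites above 0. Chosen with the shift in the wrong direction, which favours a lag below 0, 1256 sites still had medians of 34.31 bp and 72.53 bp, with 62.5% and 70.62% above 0. The median lag thus kept its sign under a choice that works against it, and was smaller in library 1.

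A stricter view holds the measured library out of the choice. When library 1 alone chose the windows and the level, 1864 sites had a median lag of 73.07 bp in library 2, where 64.84% lay above 0. When library 2 alone chose, 1846 sites had a median lag of 23.97 bp in library 1, where 55.84% lay above 0. In the library that did the choosing the medians were 67.04 bp for library 1 and 94.45 bp for library 2. Both medians were thus smaller in the library held out, and these choices also changed which sites entered.

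The lag differed more between levels in library 2 than in library 1, and by distance the libraries went opposite ways. At the 602 sites below 1 RPM the lag was above 0 at 71.6% of sites in library 1 and 65.9% in library 2, with medians of 61.1 and 57.5 bp. At the 595 sites from 1 to 2 RPM it was above 0 at 74.8% and 83.7%, with medians of 63.7 and 95.8 bp. At the 567 sites 100 kb or more from any region the lag was above 0 at 70.4% and 76.2%, with medians of 59.4 and 83.3 bp, and at the 630 nearer ones at 75.7% and 73.5%, with medians of 64.8 and 75.4 bp. These splits were not tested. The crowded weak sites had medians of 44.9 and 36.6 bp, with 66.3% and 61.1% above 0, and 13.7% below 0 in both libraries. The isolated strong sites had medians of 91.6 and 124 bp, with 91.75% and 94% above 0 and only 3 sites below 0 in both. In each library the isolated weak sites lay between these kinds of region, and no test of the difference was made.

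The distances between all pairs of plus-strand and minus-strand ends inside a site gave the same picture without a mean position. At isolated weak sites pairs were most frequent in the 10 bp bin from 80 bp in library 1 and from 120 bp in library 2. Such pairs were 1.75 and 1.67 times as frequent as pairs with the minus end 50 to 100 bp to the left of the plus end. At crowded weak sites the commonest bin began at 80 bp in both libraries, at 1.34 and 1.20 times that level. At isolated strong sites it began at 30 bp in library 1 and at 140 bp in library 2, at 2.18 and 2.48 times. The maxima are flat, so the commonest bin is a loose measure. Isolated strong sites had 10577 pairs from 30 bp and 10500 from 90 bp in library 1. In library 2 they had 6767 from 140 bp and 6628 from 30 bp. Isolated weak sites had 3690 from 80 bp and 3676 from 110 bp in library 1. A distance of 35 bp is that of 2 reads of 36 bases that cover the same bases on opposite strands, and there the isolated weak sites had 0.936 times the pairs found 5 bp to either side in library 1 and 1.13 times in library 2. The values were 0.990 and 1.01 at crowded weak sites and 1.13 and 1.06 at isolated strong sites.

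**Figure D3:**
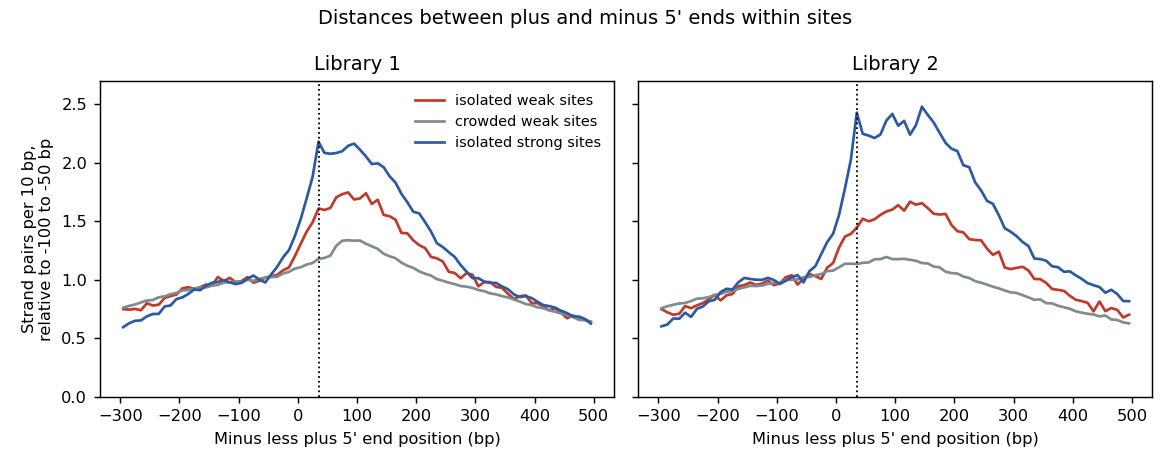
Pairs of plus-strand and minus-strand 5′ ends per 10 bp within a site, relative to the mean at -100 to -50 bp (y axis), by the position of the minus end less that of the plus end in bp (x axis), for library 1 on the left and library 2 on the right. The dotted line marks 35 bp, where opposite reads cover the same bases, and the isolated weak sites (red) run between the crowded weak (grey) and isolated strong (blue) sites from 50 to 200 bp.

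A test at each site called few sites for the order of their strands. Fisher's exact test (one-sided) set strand against side of the midpoint, with Benjamini-Hochberg adjustment over all 41704 regions and a threshold of 0.05. The midpoint is that of the tiled windows, not of the reads, so a site lying to 1 side of it can hardly pass. On chromosome 1 from 48826001 to 48826500, all 14 plus-strand and 16 of 17 minus-strand ends of library 1 lay to the left. A site not called can therefore still have ordered strands. It called 7 isolated weak sites in library 1 and 8 in library 2, or 0.585% and 0.668%, against 0.887% and 1.26% of all regions. At an unadjusted p under 0.05 it picked 107 sites (8.94%) and 108 sites (9.02%), against 7.9% and 8.85% of all regions. These shares are near those of all regions, so they are no result about the isolated weak sites. The opposite order, minus strand to the left, was called at 0 sites in either library, and at 0 of all regions. It had an unadjusted p under 0.05 at 4 and 3 sites, or 0.334% and 0.251%, against 0.789% and 1.55% of all regions.

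No isolated weak site passed the adjusted test in both libraries, and 15 passed in either. At crowded weak sites 0 passed in both and 37 in either, and at isolated strong sites 8 and 58. Of the 7 isolated weak sites called in library 1, 6 had a positive lag in library 2, with a median of 130 bp. Of these 7, 3 had an unadjusted p under 0.05 in library 2. Of the 8 called in library 2, 6 had a positive lag in library 1, with a median of 48.3 bp, and 2 had an unadjusted p under 0.05. At an unadjusted p under 0.05, 22 of the 1197 sites were picked in both libraries, against 140 of 23428 crowded weak sites and 90 of 400 isolated strong sites. No share over all regions was made for passing in either or both libraries, so these counts are descriptions.

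The lowest adjusted p of library 1 was at a site on chromosome 13 from 114108501 to 114109000. Library 1 had 27 plus-strand ends to the left of the midpoint and 3 to the right, and 5 minus-strand ends to the left and 16 to the right. Library 2 had 9 and 0 plus-strand ends and 1 and 4 minus-strand ends. The lags were 119 and 132 bp, and Fisher's exact test gave an adjusted p of 0.00106 in library 1 and 0.182 in library 2. With 49 and 12 distinct reads in its highest window, this site also held the most reads of any member in library 1.

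Other sites ordered in both libraries rested on fewer reads in library 1. On chromosome 7 from 61861001 to 61861500, with 12 and 14 distinct reads, 8 of 9 plus-strand ends lay to the left and 8 of 8 minus-strand ends to the right in library 1, and 7 of 10 and 7 of 7 in library 2. Its lags were 324 and 185 bp, and the adjusted p by Fisher's exact test was 0.0442 in library 1 and 0.207 in library 2. On chromosome 13 from 43875001 to 43876000 the lags were 114 and 126 bp, and on chromosome 6 from 128109001 to 128110000 they were 173 and 222 bp. Neither of the latter passed in either library, with adjusted p by Fisher's exact test of 0.0554 and 0.221 for the former and 0.296 and 0.0786 for the latter.

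The site with the lowest value of the larger unadjusted p was unlike these. It lay on chromosome 3 from 100110001 to 100110500, with 38 and 17 distinct reads, and its unadjusted p by Fisher's exact test was 0.00124 and 0.00226, which became 0.101 and 0.113 after adjustment. Its lags were only 11.3 and 48.2 bp. In library 1, 11 of 20 plus-strand ends lay to the left of the midpoint and 21 of 23 minus-strand ends to the right. It also held 28 and 17 alignments placed at 2 sites, and 6 starts were shared by the libraries.

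Pooled over all members, the strands were near balance, though sites leaning to opposite strands cancel in such a share. The plus strand held 50.3% of the distinct ends of all members in library 1 and 49.9% in library 2. An exact binomial test (two-sided) at each site, adjusted over all regions, called 0 isolated weak sites in either library, against 0.0024% and 0.00719% of all regions. At an unadjusted p under 0.05 it picked 28 and 44 sites, or 2.34% and 3.68%, against 2.29% and 3.65% of all regions. These shares are near those of all regions, so they are no result about the isolated weak sites. In both libraries it picked 1 isolated weak site, 18 of 23428 crowded weak sites and 1 of 400 isolated strong sites. The share over all regions was not made for both libraries at once. The share on the plus strand ran from 17.6% to 84.2% in library 1 and from 8.33% to 88.9% in library 2. Each site has few ends, so a lack of calls does not show that a single site is balanced.

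The site picked in both libraries lay on chromosome 8 from 125661501 to 125662000. It had 23 plus-strand and 10 minus-strand ends in library 1, a plus share of 69.7% with a 95% exact (Clopper-Pearson) interval of 51.3% to 84.4%, and 13 and 4 in library 2, or 76.5% with an interval of 50.1% to 93.2%. The exact binomial test gave unadjusted p of 0.0351 and 0.0490. On chromosome 3 from 5843501 to 5844000 the minus strand was the fuller, with 10 plus-strand and 20 minus-strand ends in library 1 and 1 and 11 in library 2. There, the fullest stretch of 36 bp on 1 strand held 15 distinct starts in library 1 and 7 in library 2, against a median of 3 over all members. The fullest stretch was found in each library apart, so these need not be the same stretch or strand. That site also held 15 and 6 alignments placed at 2 sites, and 25% of the windows within 10 kb were empty in both libraries.

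The sites named for strand balance are those with the lowest value of the larger unadjusted p of the libraries. At the other 3 of them, the libraries had the same fuller strand at 2. On chromosome 17 from 16939001 to 16939500, library 1 had 13 plus-strand and 5 minus-strand ends and library 2 had 32 and 11, so the same strand was the fuller in both. This site also held 11 and 23 alignments placed at 2 sites, and 37.5% of the windows within 10 kb were empty in both libraries. On chromosome 1 from 153333501 to 153334000 the fuller strand was plus in library 1, at 20 to 10, and minus in library 2, at 17 to 8. On chromosome 12 from 109099501 to 109100000 the site was at the lowest level that the rule admits, with 12 and 7 distinct reads, and 13 plus-strand ends faced 5 minus-strand ends in library 1 and 10 faced 2 in library 2. None of these passed the adjusted test.

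Repeated starts were about as frequent as the read density of each library predicts. The rule had collapsed them before counting, so they were not used to choose the sites. At the members 12.03% of alignments in library 1 and 3.64% in library 2 repeated a start and strand, against 11.1% and 3.48% in windows of the same library with the same number of distinct starts. There were 1.14 and 1.04 alignments per distinct start. No repeat at all was found at 172 sites in library 1 and 718 in library 2. The isolated strong sites stood apart, with 29.8% and 21.3% repeated against 14.6% and 5.71% predicted at their density.

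An exact binomial test (one-sided) against the share at the same density called 6 isolated weak sites in library 1 and 1 in library 2, or 0.501% and 0.0835%, against 0.959% and 1.06% of all regions. At an unadjusted p under 0.05 it picked 41 and 31 sites, or 3.43% and 2.59%, against 6.33% and 5.66%. Both shares are below those of all regions, which include wider and denser ones. The site called in library 2 was among the 6 called in library 1. Each of the 6 held between 11 and 271 alignments placed at 2 sites, over both libraries, a feature looked at after the calls were seen. No test joined these features.

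The site called in both libraries lay on chromosome 13 from 77902501 to 77903000. Its region held 40 alignments on 26 distinct starts in library 1 and 29 on 20 in library 2, and the exact binomial test gave adjusted p of 0.0174 and 0.000149. Among the alignments tested, a plus-strand start at -223 bp from the midpoint held 6 in library 1. Just to the left of the window, at -260 bp from the midpoint, a single minus-strand start held 15 alignments in library 1 and 14 in library 2. After the shift of 60 bp this start lay outside the region, so its alignments were not among those tested. Plus-strand starts at -295 and -296 bp from the midpoint, which were tested, held 4 and 5 alignments in library 1 and 3 and 4 in library 2. The piles at -260 bp and at -295 and -296 bp, on opposite strands, lay within 1 read length of each other. The libraries shared 12 starts and strands at this site, the most of any member, and 37.5% of the windows within 10 kb held no read in either library.

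The other 5 called sites passed in library 1 alone. On chromosome 18 from 56064501 to 56065500, 68 alignments lay on 48 starts in library 1 and 36 on 30 in library 2, with adjusted p of 0.00779 and 0.116 by the exact binomial test. On chromosome 4 from 63984001 to 63984500, 58 alignments lay on 27 starts in library 1, an adjusted p of 8.98e-12 by the exact binomial test, but only 11 on 9 in library 2, which did not pass. This site also held 179 and 39 alignments placed at 2 sites. On chromosome 19 from 24347001 to 24348000 a single start held 10 alignments in library 1 and no start held more than 2 in library 2. On chromosome 13 from 100891001 to 100891500, 70 alignments lay on 46 starts in library 1, and 14 distinct starts of 1 strand fell within 36 bp, where library 2 had 12 alignments on 11 starts. The sites on chromosome 19, at 100891001 and at 56064501 were singled out after their values were seen. Chromosome 4 from 53847001 to 53847500 and chromosome 5 from 5333001 to 5333500 were next by alignments per start in the lower library, with 34 on 28 and 17 on 14 for the former and 15 on 12 and 11 on 9 for the latter. On chromosome 18 from 76215501 to 76216000 they were 21 on 16 and 10 on 8, with a start of 5 alignments in library 1. None of these 3 passed.

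**Figure D4:**
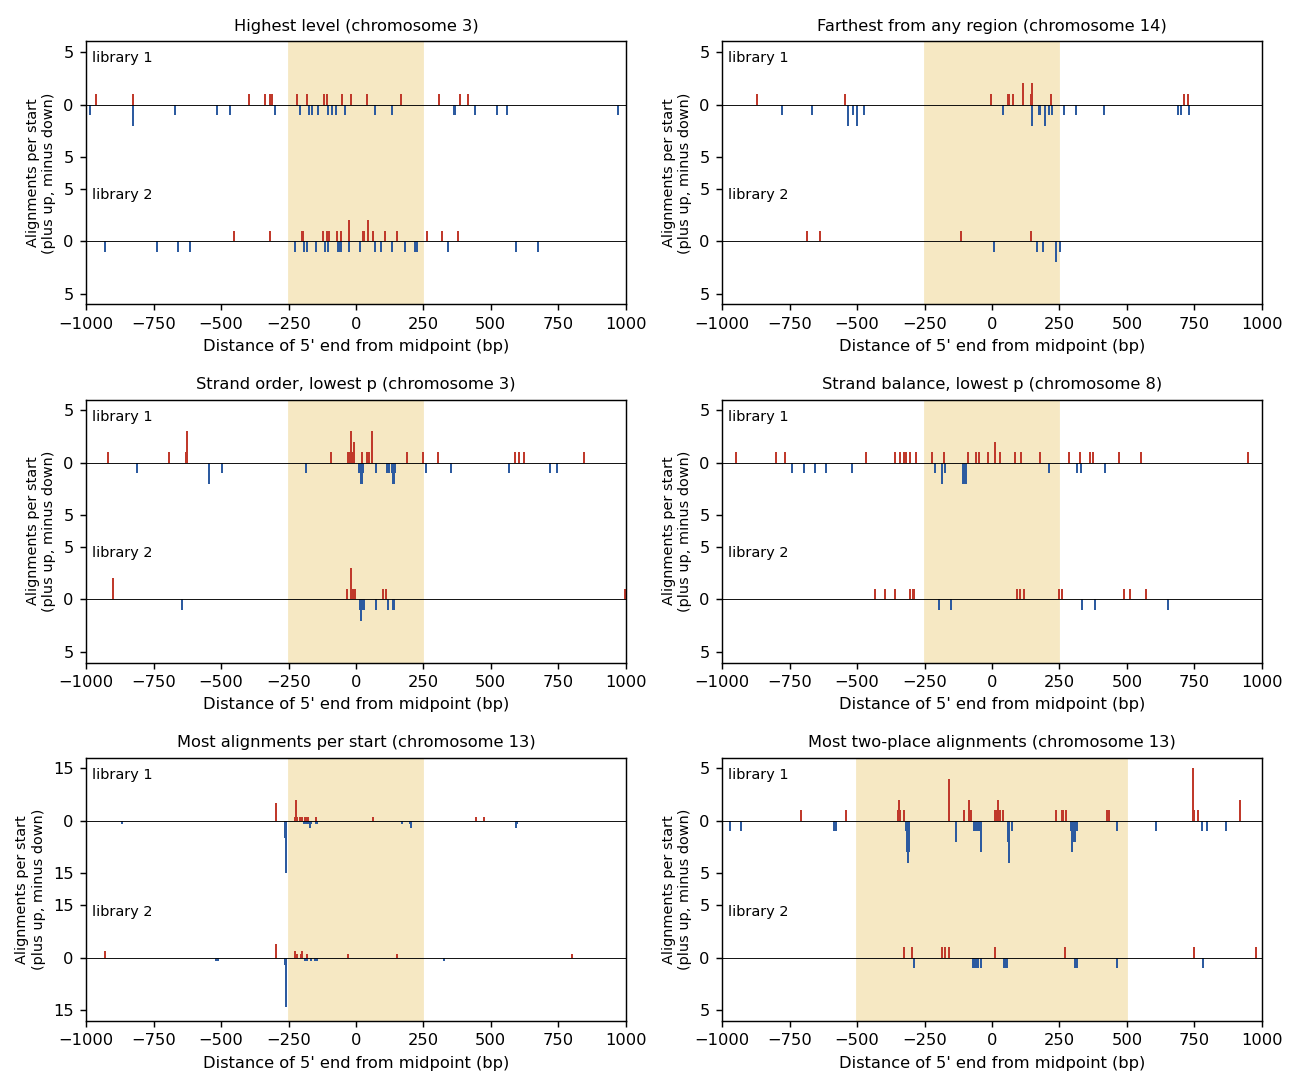
Alignments per start (y axis, plus strand up in red, minus strand down in blue, library 1 above library 2) by distance of the 5′ end from the midpoint in bp (x axis) at 6 isolated weak sites, with the region shaded. In the lower left panel a minus-strand start at -260 bp holds 15 alignments in library 1 and 14 in library 2, while starts in the upper 4 panels hold at most 3.

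Starts shared by the libraries were rare. A start counted as shared where both libraries had a read with the same 5′ base and strand. Shared starts numbered 682 at 459 sites, which was 2.06% of the distinct starts of library 1 and 2.64% of those of library 2. At crowded weak sites 1.63% of the starts of library 2 were shared and at isolated strong sites 9.33%. A single isolated strong site held 198 of the 2233 shared starts of its kind. The density of reads differs between these kinds of region and raises chance sharing.

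Reads placed at 2 sites touched few of the members. They were not counted by the rule. At 1036 sites (86.5%) neither library had any, and 10.6% of sites had at least 1 in library 1 and 8.10% in library 2. At crowded weak sites these shares were 15.1% and 14.3%, and at isolated strong sites 20% and 16.75%. At 37 isolated weak sites (3.09%) there were 10 or more over both libraries, and 36 of the 37 had some in each library.

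At 2 of the 3 sites with the most such reads, many windows within 10 kb held no read in either library, and at the other, on chromosome 4 from 63984001 to 63984500, none was empty. On chromosome 13 from 3372001 to 3373000, 215 alignments in library 1 and 56 in library 2 were placed at 2 sites, beside 26 and 14 distinct reads in the highest window, and 37.5% of the windows within 10 kb were empty. On chromosome 12 from 21789501 to 21790000 there were 107 and 61, beside 14 and 13 distinct reads, and 70% of the windows within 10 kb were empty. On chromosome 14 from 118073001 to 118073500, singled out after its values were seen, every window within 10 kb was empty in both libraries, and 67 and 24 alignments were placed at 2 sites. Its 13 and 9 distinct reads were 468 and 324 times the mean of the windows 5 to 50 kb away. Reads that fit more than 2 sites were lost at alignment, so an empty window can be repeated sequence or a gap of the assembly as well as sequence without signal.

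Technical signs were then counted at each member, with limits set after the values were seen. The signs were 10 or more alignments placed at 2 sites, 25% or more empty windows within 10 kb, a start with 5 or more alignments in either library, 80% or more of the ends on the same strand in both libraries, and a pass in the repeated start test. They were found at 37, 66, 12, 0 and 6 sites. At least 1 sign was found at 91 sites (7.602%), more than 1 at 22, and none at 1106. At crowded weak sites 2.84% had at least 1 sign, and at isolated strong sites 14.75%. The rule sets these kinds of region apart by distance and level, so these shares are descriptions. Many empty windows were found at 5.51% of isolated weak, 5.75% of isolated strong and 1.21% of crowded weak sites. A start with 5 or more alignments was found at 12 of 1197, 26 of 400 and 55 of 23428 of these sites. Whether the kinds differ apart from distance and level was not tested. A sign is a measurement at the site and does not show that its signal is not Pol II, and which sites are artefacts was not tested.

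Pooled over sites, those with a technical sign had more opposite ends close together than the others. Pairs of opposite ends were counted per bp at distances of 20 to 50 bp, near a read length, and at 70 to 130 bp. The latter range holds the commonest distances at isolated weak sites, from 80 bp in library 1 and from 120 bp in library 2. It is not a measured fragment length. At the 1106 sites with no sign the closer pairs were 0.830 times as dense as the farther ones in library 1 and 0.853 times in library 2. At the 37 sites with many alignments placed at 2 sites they were 3.25 and 2.21 times as dense, and they were the denser at 30 of these sites in library 1 and 28 in library 2. At the 66 sites with many empty windows the ratios were 1.78 and 1.28, but the closer pairs were the denser at only 38 and 32 of the sites. At the 12 sites with a start of 5 or more alignments the ratios were 2.85 and 2.01, with 7 and 11 sites. Over all members the closer pairs were the denser at 35.4% and 37.9% of sites.

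The sites with many alignments placed at 2 sites were also more compact and stood higher over their surroundings, as values with no test. Over the 37 sites with many alignments placed at 2 sites, 50.5% and 44.6% of reads within 500 bp of the centre lay within 100 bp of it, against 34.4% and 33.1% at sites with no sign. Their highest window was a median of 10.6 and 17.6 times the mean of windows 5 to 50 kb away, against 4.42 and 7.79 times. Their lag was above 0 at 64.9% of sites in library 1 and 89.2% in library 2, with medians of 28.6 and 74.3 bp. Alignments per distinct start were 1.28 and 1.07, against 1.13 and 1.04.

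**Figure D5:**
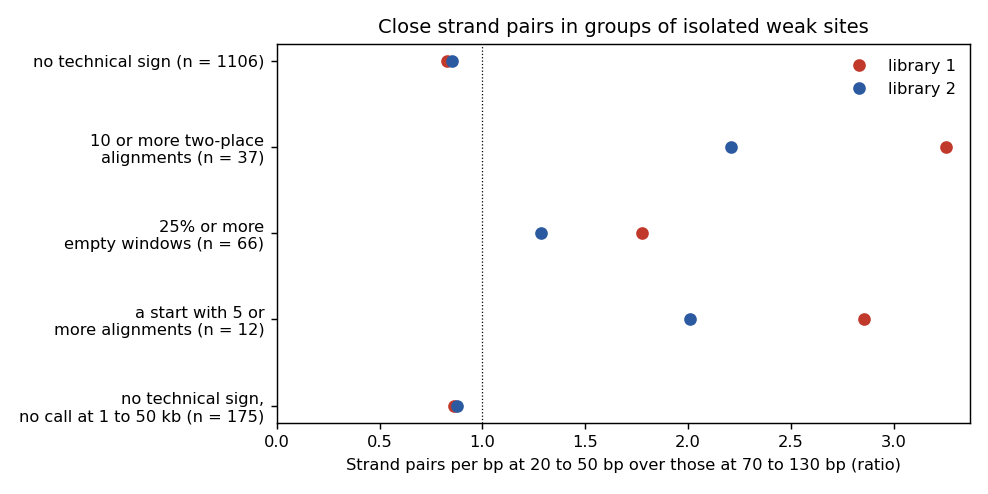
Density of opposite-strand pairs 20 to 50 bp apart over that of pairs 70 to 130 bp apart (x axis, ratio; the dotted line marks equal density) for groups of isolated weak sites (rows, with the number of sites), 1 point per library. Groups with a technical sign lie above 1 in both libraries, and both groups without a sign lie below 1.

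Sites with no technical sign are most of the members. Their median lags were 63.8 bp in library 1 and 78.7 bp in library 2, with 73.7% and 74.1% above 0. Of these, 175 also had no window called in either library between 1 and 50 kb away. In that group the median lags were 69.2 and 91.7 bp, with 68.6% and 74.3% above 0, and the ratio of close to far pairs was 0.862 and 0.877. Their highest window was a median of 5.36 and 11.9 times the mean of the windows 5 to 50 kb away.

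Among the 5 sites with the highest mean level, the libraries were close in RPM at some and far apart at others. On chromosome 3 from 58256501 to 58257000, the site with the highest mean, library 1 had 17 distinct reads and library 2 had 33, or 0.969 and 3.02 RPM. Its lags of 40.9 and 17.1 bp were below the medians over all members, 62.4 and 79.2 bp, but within the middle 50% of sites. The strand order test gave unadjusted p by Fisher's exact test of 0.602 and 0.780. On chromosome 4 from 6118001 to 6118500 there were 33 and 23 reads, or 1.88 and 2.10 RPM, with lags of 43.1 and 118 bp. On chromosome 11 from 72117501 to 72118000 there were 41 and 18 reads, or 2.34 and 1.65 RPM, with lags of 73.9 and 188 bp. The site on chromosome 2 from 150002501 to 150003000, with 20 and 31 reads, or 1.14 and 2.83 RPM, had 24 and 25 alignments placed at 2 sites. On chromosome 11 from 63738001 to 63739000 the lag was -13.9 bp in library 1 and 220 bp in library 2, on 36 and 21 reads, or 2.05 and 1.92 RPM.

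The 5 most remote sites lay megabases from any other region. The farthest, on chromosome 14 from 109636501 to 109637000, lay 4287 kb from the nearest region and held 15 and 7 distinct reads, with lags of 50.3 and 154 bp. The next, on chromosome 15 from 18763001 to 18763500, lay 4217 kb away with 12 and 10 reads, and its lag was 57.8 bp in library 1 and -39.5 bp in library 2. On chromosome 14 from 83251501 to 83252000, at 2720 kb, there were 28 and 22 reads, lags of 137 and 146 bp, and no alignment placed at 2 sites. This site had the highest mean RPM of the 5 most remote, 1.80, and stood 12.4 and 30.5 times over the windows 5 to 50 kb away. On chromosome 15 from 22980501 to 22981000, at 2320.5 kb, the lags were -122 and 180 bp, of opposite sign, on 16 and 15 reads. On chromosome 1 from 48826001 to 48826500, at 2026.5 kb, there were 30 and 8 reads with lags of 38.0 and 13.0 bp.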

How the data were processed

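ChIP-seq for Pol II was made in 2 libraries from mouse embryonic fibroblasts. Chromatin was sonicated to a mean of 500 bp and amplified by 18 cycles of PCR, per the labels' protocols. Per the file headers, the authors used Bowtie with mm8 and set e to 70, k to 2, m to 2, n to 2 and l to 36. The sources used here do not give its version. What the authors deposited is other than counts: a signed left-most read offset per alignment, with reads placed at 1 site and at 2 sites apart, and no peaks or scaling. Offsets were read as counted from 0 and reads as 36 bases, from the values. Reads with more than 2 possible sites were dropped, which leaves repeats under-represented. PCR copies without molecular identifiers are not independent molecules, so intervals cover counting error only.

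Reads placed at 1 site were collapsed to 1 per start and strand and shifted 60 bp for window counts. Strand measures used unshifted ends. Each test was exact, per region and per library, with Benjamini-Hochberg adjustment over all 41704 regions. Sites are named by rule: the 5 highest, the 5 farthest, the 5 first in each of strand order, strand balance and alignments per start, the 3 with most alignments placed at 2 sites, and those next to each limit. The members and lists were chosen with earlier results of these data known. Alternatives changed the shift, tiling, read minimum, distance, level, repeats, two-site reads and choosing library. Python 3.11.15, NumPy 2.4.6, SciPy 1.17.1, pandas 2.3.3 and matplotlib 3.10.9 were used, and the scripts were tested on simulated data.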

Additional observations from a re-analysis of the deposited data

Results flagged for a closer look

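Chromosome X was outside the rule, and the same rule applied to it gave 84 isolated weak sites among 637 regions called in both libraries, or 13.2% of regions, against 2.87% over the autosomes. Their median lags were 66.6 bp in library 1 and 117 bp in library 2, with 81.0% and 85.7% of sites above 0, and there were 1.16 and 1.03 alignments per distinct start. No control library was analysed here, and the difference from the autosomes was not tested.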

How the results depend on the processing

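The number of sites and 18 measures of the members were recomputed under 11 planned settings and 2 added after the data were seen. Only the lags could change sign, and none did. Counts, shares and alignments per start cannot reverse, so their sign shows nothing. Of 247 recomputed values, 20 shares passing a test became weaker and 8 stronger by the limits used. Site numbers and median lags moved at 10 values and the remaining measures at 44. Strand balance called 0 sites under each of them. With no shift the median lag of library 1 was 46.45 bp, and with a shift of -60 bp it was 34.31 bp, with 1.035% of sites passing strand order in library 2. Tiling moved on by 250 bp gave 0.3276% and 0.1638% of sites passing the repeated start test in libraries 1 and 2. A minimum of 16 and 9 reads gave 1.786% passing strand order in each library and 0.188% passing repeats in library 2. At 25 kb there were 2363 sites, with 0.3809% passing order in library 1 and 0.2539% and 0.04232% passing repeats. At 100 kb there were 567, with 0.3527%, 0.8818% and 0.1764%. Below 1 RPM there were 602, with 0.1661% and 0% passing order, 0% and 0% passing repeats, and a median lag of 57.54 bp in library 2. With all reads kept, 0.8885% passed order in library 1. With reads placed at 1 or 2 sites, 0.2098% passed repeats in library 1. Without sites that have a technical sign, 0% passed repeats in either library by construction, since a pass is itself a sign.

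When a single library chose the sites there were 1846 to 1864 of them. Over these choices strand order passed at 0.05417% to 0.1609% in library 1 and 0% to 0.4292% in library 2, and repeats at 0.2682% to 0.2709% and 0.05365% to 0.05417%. The median lag ran from 23.97 to 67.04 bp in library 1 and from 73.07 to 94.45 bp in library 2. The cause of these changes was not tested. The share passing a test rests on at most a few sites, and 7 to 49 distinct reads per site and library limit what a single site can show. No paired analysis was possible because the libraries form 1 group with no group to compare.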
